A study of Homo sapiens with 8 samples.

Results

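Fresh cells were held for 1 h with DMSO or for 1 h in medium and were compared with fresh cells at 0 h, by RNA sequencing of 1 library for each condition. These 3 libraries were chosen by their titles and are 3 of the 8 libraries of a study of cell freezing. The other 5 were from frozen cells and serve here as a side comparison. By title, 2 of these 5 were frozen with DMSO and held for 0 h or 1 h. The others carry the solution labels SGC and SGI, each held for 1 h, and SMC, held for 2 h. The cells in all groups were mesenchymal stromal cells made from the human embryonic stem cell line H9, with no genetic change stated. They had been grown on gelatin in alpha-MEM with 10% fetal bovine serum and 1% non-essential amino acids and were used at passages 8 to 12. The DMSO group was mixed stepwise with a DMSO solution to a final volume ratio of 1:1, vials stood at room temperature, and cells were then diluted and spun down before RNA isolation. The parts of DMSO and of this handling were not tested apart. The DMSO concentration, the handling of the 0 h cells and whether the 3 libraries came from 1 culture are stated in no source used here. With 1 library a condition there was no replicate check and no test: every value below describes 3 libraries, and the intervals cover counting error only.

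DMSO is a solvent that enters cells and protects them from ice; cells are usually exposed to it for a short time before freezing. Immediate early genes are genes that a cell can transcribe within minutes of a stimulus without making new protein first. Their messengers are short-lived, and many encode transcription factors (the FOS, JUN, EGR, NR4A and KLF families) or inhibitors that end the signal, such as the DUSP phosphatases, which switch off MAP kinases, and NFKBIA, which holds NF-kappa-B in the cytoplasm. In stromal cells the response is known to follow serum, stretching and detachment.

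Counts summed to 43810894 in the 1 h DMSO library, 41198716 in the 1 h medium library and 45235900 in the 0 h library. Of 23354 genes in the table, 11979 had a count of 100 or more in at least 1 of the 3 libraries and entered the comparison. Levels are in CPM, which are counts divided by each library's size after that size was adjusted by trimmed mean of M-values (TMM) factors. The defining stromal genes were abundant, with a summed level over the stromal marker list of 41750 CPM with DMSO, 42540 CPM in medium and 44180 CPM at 0 h, and 0 of 8 blood cell markers reached a count of 100. Pluripotent markers summed to 28.9 CPM with DMSO, 30.5 CPM in medium and 31.3 CPM at 0 h. Of 8 neural markers 3 reached that count, and the list summed to 138.7 CPM with DMSO, 155.8 CPM in medium and 128.7 CPM at 0 h. Of 8 endothelial markers 2 did, and the list summed to 47.9 CPM with DMSO, 41.55 CPM in medium and 49.09 CPM at 0 h. The keratin genes KRT8 and KRT18, whose deposited spans overlap and which are often seen in cultured stromal cells, made up most of an epithelial marker sum of 1370 CPM with DMSO, 1548 CPM in medium and 1362 CPM at 0 h.

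Differences are given as log2 ratios with a prior count of 2, so that a log2 ratio of 1 is a 2-fold difference. After 1 h in medium 37 genes were at least 2-fold higher than at 0 h, 0.309% of the genes compared, and 22 were at least 2-fold lower, 0.184%. After 1 h with DMSO 8 genes were at least 2-fold higher than at 0 h, 0.0668%, and 41 were at least 2-fold lower, 0.342%. Of the 8, PTPN6, HILS1, SGCA and SEMA4A reached a count of 100 with DMSO alone, so they entered only through the library in which they were high. Of the 37, the same held in medium for CXCL3, HES4, HVCN1, LSAMP and RPPH1. Of the 22, CUBN, KCNJ11, MIR21, RFX8, SNORA32, ZFHX2, LOC100130557, LOC100506124 and LOC100506686 reached a count of 100 at 0 h alone. Of the 41, LOC100507501, LOC158257, MACC1, MIR17HG, MIR21, SNORA32, SNORD36A, SRSF12 and ZNF781 did so at 0 h alone. CXCL3 and MIR23A, also among the 41, did so in medium alone. Between the 1 h libraries 21 genes were at least 2-fold higher with DMSO than in medium, 0.175%, and 77 were at least 2-fold lower, 0.643%. The 2-fold sets thus held more higher than lower genes in medium and more lower than higher genes with DMSO. In medium this turned at a 1.5-fold threshold, with 116 genes higher and 210 lower, while with DMSO 50 were higher and 165 lower. For most genes the libraries were close: the median log2 ratio over all genes was 0.00 in both 1 h comparisons with 0 h, with an SD over genes of 0.21 for DMSO over 0 h and 0.24 for medium over 0 h. The counting interval lay wholly past 2-fold for 23 of the 37 genes higher in medium, 2 of the 22 lower, 3 of the 8 higher with DMSO and 24 of the 41 lower, so many of the lower calls in medium rest on small counts. In such bulk libraries fewer cells of a type and less RNA per cell cannot be told apart.

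Each gene 2-fold apart in medium was sorted by its ratio with DMSO: kept if it was 2-fold apart in the same direction, reduced if its log2 ratio was between 0.5 and 1 in that direction, absent if it was under 0.5 in size, and reversed if it was 0.5 or more in the opposite direction. Of the 37 genes higher in medium, 20 were reversed with DMSO (54.05%), 15 were absent (40.54%), 2 were reduced and 0 were kept. Of the 22 genes lower in medium, 12 were absent with DMSO, 1 was reversed, 6 were reduced and 3 were kept. Sorted the other way round, the 41 genes lower with DMSO held 23 whose ratio in medium was reversed, 9 in which it was absent, 6 reduced and 3 kept. Both ratios use the same 0 h library, so a low or high value there moves both in the same direction, and the classes describe the 3 libraries together. Of the 77 genes lower with DMSO than in medium, 72 were below 0 h with DMSO and above 0 h in medium, beside 2596 of all 11979 genes compared. Choosing genes by the ratio between the 1 h libraries favours a 0 h level between them, so this count adds no separate support. Just inside the 2-fold threshold in medium lay HVCN1, EGR3 and NR4A2, at log2 ratios of 1.02, 1.03 and 1.05, and just outside lay IER2, FOSL1 and DUSP1, at 1.00, 0.92 and 0.92, where IER2 was under 1 before rounding.

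**Figure D1:**
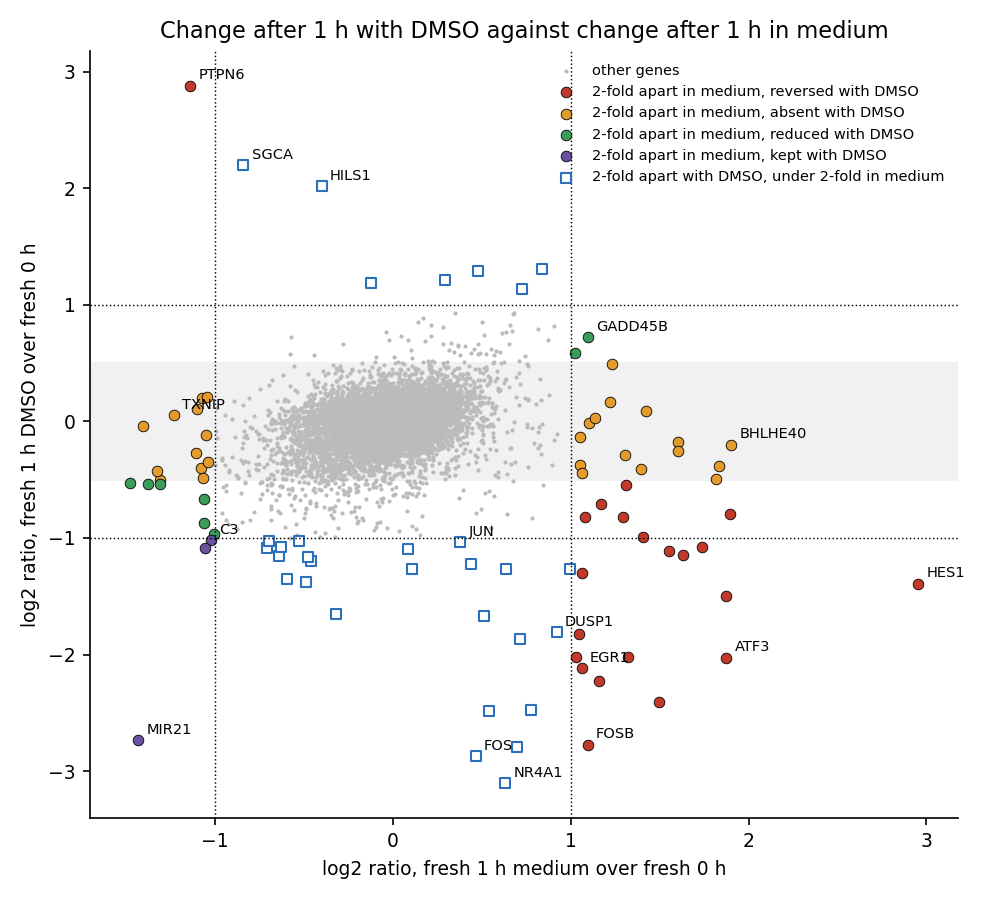
Log2 ratio of 1 h DMSO over 0 h (vertical axis) against log2 ratio of 1 h medium over 0 h (horizontal axis) for 11979 genes, 1 library a condition. Dotted lines mark a log2 ratio of 1 in either direction, and the grey band marks DMSO ratios under 0.5 in size. The right side holds 37 genes 2-fold higher in medium, all below the upper dotted line, and 20 of them lie below the band.

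Of the 37 genes higher in medium, 10 were on the list of immediate early transcription factors, and with DMSO 6 of these were reversed and 4 absent. Of 22 measured factors on this list, 0 were 2-fold higher with DMSO than at 0 h and 12 were 2-fold lower, against 10 higher and 0 lower in medium. The list median log2 ratio was -1.08 with DMSO and 0.82 in medium, beside 0.00 over all genes in each. A level below 0 h with DMSO and above 0 h in medium was seen in 2596 of all 11979 genes compared and in 21 of the 22 factors. The exception was FOSL2, a FOS relative, at 142 CPM with DMSO, 139 CPM in medium and 131 CPM at 0 h. Summed over the list the level was 1187 CPM with DMSO and 5824 CPM in medium, against 3120 CPM at 0 h.

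ATF3, a stress-induced repressor of the bZIP class, stood at 7.17 CPM with DMSO and 108 CPM in medium, against 29.4 CPM at 0 h. The log2 ratio of DMSO over medium was -3.90, with a 95% counting interval from -4.15 to -3.68. EGR1, a zinc finger factor that answers serum and growth factors, stood at 143 CPM with DMSO and 1292 CPM in medium, against 619 CPM at 0 h. Its ratios were -2.11 for DMSO over 0 h and 1.06 for medium over 0 h. Both factors were readily detected at 0 h, and the library with DMSO lay below that level while the library in medium lay above it. EGR3 showed the same order, at 5.86 CPM with DMSO and 48.9 CPM in medium, against 24.0 CPM at 0 h.

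Among the AP-1 subunits, which pair as FOS and JUN proteins on DNA, FOSB was reversed and FOS and JUN differed mainly with DMSO. FOSB had 61.6 CPM with DMSO and 901 CPM in medium, against 422 CPM at 0 h. FOS had 72.1 CPM with DMSO and 729 CPM in medium, against 528 CPM at 0 h, which gave log2 ratios of -2.87 with DMSO and 0.47 in medium. JUN had 203 CPM with DMSO and 540 CPM in medium, against 416 CPM at 0 h. FOS and JUN were thus lowest with DMSO and only modestly above 0 h in medium, and both stayed under the 2-fold threshold there. JUNB, JUND and FOSL1 had DMSO over medium log2 ratios of -1.91, -1.25 and -1.03.

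The orphan nuclear receptor NR4A1 had the lowest ratio of DMSO over 0 h of all genes compared, at a log2 ratio of -3.10 with an interval from -3.35 to -2.88. Its level was 7.76 CPM with DMSO and 104 CPM in medium, against 67.0 CPM at 0 h. Its relative NR4A2 was scarce, at 0.727 CPM with DMSO and 5.60 CPM in medium, against 2.68 CPM at 0 h. Among Krüppel-like factors, KLF6 was reversed, at 116 CPM with DMSO and 735 CPM in medium, against 251 CPM at 0 h. KLF2 and KLF4, factors known for their roles in vessel lining and stem cells, were 2-fold lower with DMSO, at log2 ratios of -1.87 and -1.67, and under 2-fold higher in medium, at 0.71 and 0.51. KLF10, a factor induced by TGF-beta, was absent with DMSO instead, at 76.1 CPM with DMSO and 263 CPM in medium, against 86.3 CPM at 0 h. The KLF genes therefore fell in both classes.

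**Figure D2:**
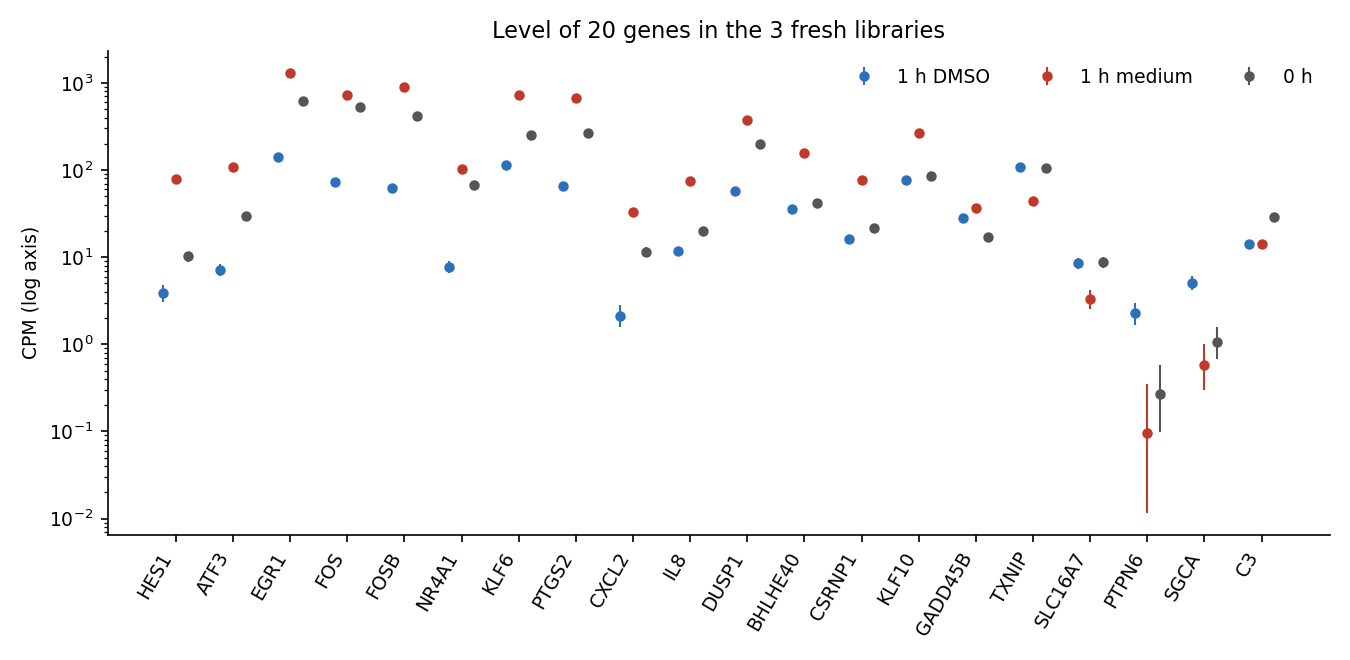
Level in CPM (log axis) of 20 genes in the 1 h DMSO, 1 h medium and 0 h libraries; points are single libraries and bars are 95% Poisson counting intervals. From HES1 to DUSP1 the DMSO point is the lowest of the 3 and the medium point the highest; BHLHE40, CSRNP1 and KLF10 have DMSO points near those at 0 h, TXNIP and SLC16A7 have the medium point lowest, and PTPN6 and SGCA have the DMSO point highest.

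The bases just before the start of 5 of these genes are shown as examples. Each runs from 150 bases before the annotated start to the base before it, from RefSeq on build GRCh38.p14. Capitals mark matches to the motifs searched on both strands, and sites that differ from those patterns or lie outside the bases shown are not marked. EGR1, chr5:138465329-138465478, plus strand, holds a pair of serum response elements (CArG boxes), the site bound by serum response factor.
EGR1: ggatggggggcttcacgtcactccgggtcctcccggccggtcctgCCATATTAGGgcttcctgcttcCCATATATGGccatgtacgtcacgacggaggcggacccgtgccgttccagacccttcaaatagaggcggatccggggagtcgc
DUSP1, chr5:172771196-172771345, minus strand, holds a cyclic AMP response element, TGACGTCA, and a TATA box, TATAAA.
DUSP1: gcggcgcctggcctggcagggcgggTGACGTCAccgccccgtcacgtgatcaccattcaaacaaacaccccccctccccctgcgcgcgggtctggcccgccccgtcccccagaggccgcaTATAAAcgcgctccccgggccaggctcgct
FOS, chr14:75278678-75278827, plus strand, holds a TATA box.
FOS: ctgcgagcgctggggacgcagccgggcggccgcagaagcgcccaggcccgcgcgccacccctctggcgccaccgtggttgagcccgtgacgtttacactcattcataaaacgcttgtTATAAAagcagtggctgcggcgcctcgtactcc
CXCL2, chr4:74099196-74099345, minus strand, holds overlapping kappa-B sites, which are read here as 1 run of capitals.
CXCL2: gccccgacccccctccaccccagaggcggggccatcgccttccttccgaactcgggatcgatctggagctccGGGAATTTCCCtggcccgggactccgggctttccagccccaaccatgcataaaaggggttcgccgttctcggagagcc
IL8 (CXCL8 in RefSeq), chr4:73740419-73740568, plus strand, holds an AP-1 site, TGACTCA, and a TATA box.
IL8: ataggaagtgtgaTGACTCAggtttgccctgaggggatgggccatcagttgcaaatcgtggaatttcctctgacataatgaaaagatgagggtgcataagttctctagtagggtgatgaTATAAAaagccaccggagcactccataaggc
In windows from 250 bases before to 50 after the start, the CArG box was found in 0.931% of 6767 matched promoters of the genes compared, the cyclic AMP response element in 3.83%, the AP-1 site (TGACTCA or TGAGTCA) in 2.85%, the kappa-B site in 12.5% and TATAAA in 4.74%. As 6767 of 11979 genes matched the promoter table, and 22 of the 37 genes higher in medium, fewer than 80% of either set had a promoter, so a comparison of motif shares between classes is void and none is given. A match is a string of letters, not a site shown to be used.

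Of 23 other rapid response genes measured, 19 were below 0 h with DMSO and above it in medium, as were 2596 of all 11979 genes compared. On this list BTG1, GADD45B, ZFP36L1 and ZFP36L2 did not have that order. Of the 23, 0 were 2-fold higher and 2 were 2-fold lower with DMSO than at 0 h, against 5 higher and 0 lower in medium, and the list medians were -0.37 with DMSO and 0.52 in medium. ZFP36, which promotes the decay of messengers with AU-rich ends, was reversed, at 20.8 CPM with DMSO and 218 CPM in medium, against 97.3 CPM at 0 h. TRIB1, a pseudokinase, was absent with DMSO, at 19.3 CPM with DMSO and 70.1 CPM in medium, against 23.0 CPM at 0 h. PIM1, a survival kinase, and GADD45A, a growth arrest protein, were also absent, with log2 ratios of -0.44 and -0.37 with DMSO and 1.06 and 1.05 in medium. GADD45B was the member of the 37 nearest to being kept: it had 28.1 CPM with DMSO and 36.2 CPM in medium, against 16.9 CPM at 0 h, and its ratio of DMSO over 0 h of 0.73 was the highest among them. The other reduced gene, HVCN1, a proton channel gene, rested on counts of 78 with DMSO, 100 in medium and 52 at 0 h and overlaps TCTN1. CTGF and CYR61, secreted matricellular proteins often read as YAP targets, were under 2-fold from 0 h in each hold but 2-fold lower with DMSO than in medium: CTGF had 577 CPM with DMSO and 1594 CPM in medium, against 1087 CPM at 0 h. They were the 2 of 18 YAP targets past 2-fold between the 1 h libraries.

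Feedback inhibitors of MAP kinases differed from gene to gene. Of 16 measured, 0 were 2-fold higher and 2 were 2-fold lower with DMSO than at 0 h, against 2 higher and 1 lower in medium. DUSP6, the phosphatase that acts on ERK in the cytoplasm, had 3.68 CPM with DMSO and 30.2 CPM in medium, against 20.7 CPM at 0 h, and its log2 ratio of -2.48 with DMSO had an interval from -2.85 to -2.15. DUSP1, which acts on JNK and p38 as well, had 57.2 CPM with DMSO and 380 CPM in medium, against 201 CPM at 0 h. DUSP2 was reversed and DUSP5 was absent with DMSO, at log2 ratios of -0.82 and -0.41 with DMSO and 1.08 and 1.40 in medium. SPRY1, an inhibitor of receptor tyrosine kinase signalling, was below 0 h in both holds and had 23.1 CPM with DMSO and 15.4 CPM in medium, against 32.4 CPM at 0 h. DUSP4, DUSP7, DUSP14 and DUSP16 were within a log2 ratio of 0.3 of 0 h in both holds.

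Members of the list of NF-kappa-B targets and chemokines, 23 of the 11979 genes compared, made up 8 of the 20 reversed genes. Of 23 measured members of this list, 0 were 2-fold higher and 5 were 2-fold lower with DMSO than at 0 h, against 8 higher and 1 lower in medium. Below 0 h with DMSO were 22 of the 23, beside 6055 of all 11979 genes compared. CXCL2, a neutrophil chemokine, had 2.13 CPM with DMSO and 32.6 CPM in medium, against 11.5 CPM at 0 h, a log2 ratio of DMSO over medium of -3.91 with an interval from -4.39 to -3.51. IL8, another neutrophil chemokine, had 11.6 CPM with DMSO and 75.4 CPM in medium, against 20.2 CPM at 0 h. PTGS2, the inducible enzyme of prostaglandin synthesis, had 65.8 CPM with DMSO and 667 CPM in medium, against 267 CPM at 0 h. These 3 genes had the same order of the 3 libraries. CXCL3, IL1B and IL6 had log2 ratios of -1.50, -1.07 and -0.99 with DMSO and 1.87, 1.74 and 1.41 in medium. The inhibitor gene NFKBIA had 30.1 CPM with DMSO and 111 CPM in medium, against 49.1 CPM at 0 h. NFKBIZ, whose span overlaps FAM55C, had 30.6 CPM with DMSO and 211 CPM in medium, against 68.0 CPM at 0 h. ZC3H12A, a ribonuclease that cuts inflammatory messengers and stands outside this list, was absent with DMSO, at 14.0 CPM with DMSO and 31.9 CPM in medium, against 15.4 CPM at 0 h. The list was not uniform: the subunit genes NFKB1 and NFKB2 had ratios of -0.05 and -0.12 with DMSO and -0.22 and 0.12 in medium, and the chemokine gene CXCL6 was lower in both holds, at 6.54 CPM with DMSO and 6.37 CPM in medium, against 12.8 CPM at 0 h.

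HES1 (hg19 chr3:193853931-193856401), the repressor best known as a Notch target, had the highest ratio of medium over 0 h of all genes compared, and the lowest ratio of DMSO over medium. It had 3.86 CPM with DMSO and 79.3 CPM in medium, against 10.2 CPM at 0 h. The log2 ratios were -1.39 for DMSO over 0 h (interval from -1.78 to -1.04), 2.95 for medium over 0 h (2.76 to 3.17) and -4.34 for DMSO over medium (-4.69 to -4.05). HES4, its relative, followed at lower counts, at 1.09 CPM with DMSO and 4.05 CPM in medium, against 1.61 CPM at 0 h. The other 4 measured members of the Notch list, the ligand JAG1 and the receptors NOTCH1, NOTCH2 and NOTCH3, were within a log2 ratio of 0.3 of 0 h in both holds.

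Secreted factors and clock repressors showed both classes. LIF, a cytokine of the interleukin 6 family, was reversed, at 122 CPM with DMSO and 530 CPM in medium, against 216 CPM at 0 h. HBEGF, a ligand of the EGF receptor, was absent with DMSO, at 9.49 CPM with DMSO and 19.7 CPM in medium, against 8.45 CPM at 0 h. In the growth factor list of 15 measured genes, 0 were 2-fold apart with DMSO and 2 were 2-fold higher in medium, LIF and HBEGF. PER1, a repressor of the circadian clock, was reversed, at 9.04 CPM with DMSO and 46.9 CPM in medium, against 22.4 CPM at 0 h. BHLHE40, another clock repressor, was absent with DMSO, at 36.2 CPM with DMSO and 155 CPM in medium, against 41.5 CPM at 0 h. PER2 and PER3 had ratios of -0.07 and 0.11 with DMSO and 0.12 and -0.08 in medium, so 2 of the 17 clock genes made up the list's 2-fold calls in medium.

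The absent class, with levels in the DMSO library near those at 0 h, held further regulators. CSRNP1, a nuclear protein of the rapid response, had 16.3 CPM with DMSO and 76.2 CPM in medium, against 21.4 CPM at 0 h. RRAD, a small GTPase of the RAS family, had 3.22 CPM with DMSO and 16.2 CPM in medium, against 4.56 CPM at 0 h, and lay just on the absent side of the inner bound, at a log2 ratio of -0.49. MAFF, a small MAF factor, had 12.3 CPM with DMSO and 37.2 CPM in medium, against 15.0 CPM at 0 h. SNAI2, the mesenchymal repressor also called Slug, had 48.0 CPM with DMSO and 103 CPM in medium, against 47.1 CPM at 0 h. Over the 15 genes of this class the ratio of DMSO over 0 h ran from -0.49 to 0.49 with a median of -0.20, so more of them lay below 0 h than above it. Over the 20 reversed genes it ran from -2.77 to -0.54 with a median of -1.35. In the BMP-responsive ID family, ID1, ID2, ID3 and ID4 had ratios of 0.00, 0.23, -0.09 and -0.35 with DMSO and 0.68, 0.88, 0.82 and 0.69 in medium, below the 2-fold threshold in each.

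Among the 22 genes lower after 1 h in medium, 12 were near their 0 h level with DMSO. TXNIP, an arrestin that limits glucose uptake and binds thioredoxin, had 109 CPM with DMSO and 44.6 CPM in medium, against 105 CPM at 0 h. Its log2 ratios were 0.06 with DMSO and -1.23 in medium, with an interval in medium from -1.34 to -1.12. SLC16A7, a monocarboxylate transporter gene, had 8.54 CPM with DMSO and 3.28 CPM in medium, against 8.76 CPM at 0 h. CACNA2D1, an auxiliary subunit of calcium channels, had 41.9 CPM with DMSO and 21.96 CPM in medium, against 45.5 CPM at 0 h. ZBED6, a gene lying inside ZC3H11A whose reads cannot be told apart from those of that gene, had 50.9 CPM with DMSO and 21.3 CPM in medium, against 44.0 CPM at 0 h. These 4 genes had their lowest level in medium and similar levels in the other 2 libraries. ARRDC4, a relative of TXNIP that is also known to answer glucose, had a ratio of 0.00 with DMSO and -0.69 in medium on counts of 114, 66 and 116 in the DMSO, medium and 0 h libraries. Of the 21 genes higher with DMSO than in medium, 20 were above 0 h with DMSO and below it in medium, and 18 had no library with a count of 400. Their choice by the ratio between the 1 h libraries favours such an order.

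**Figure D3:**
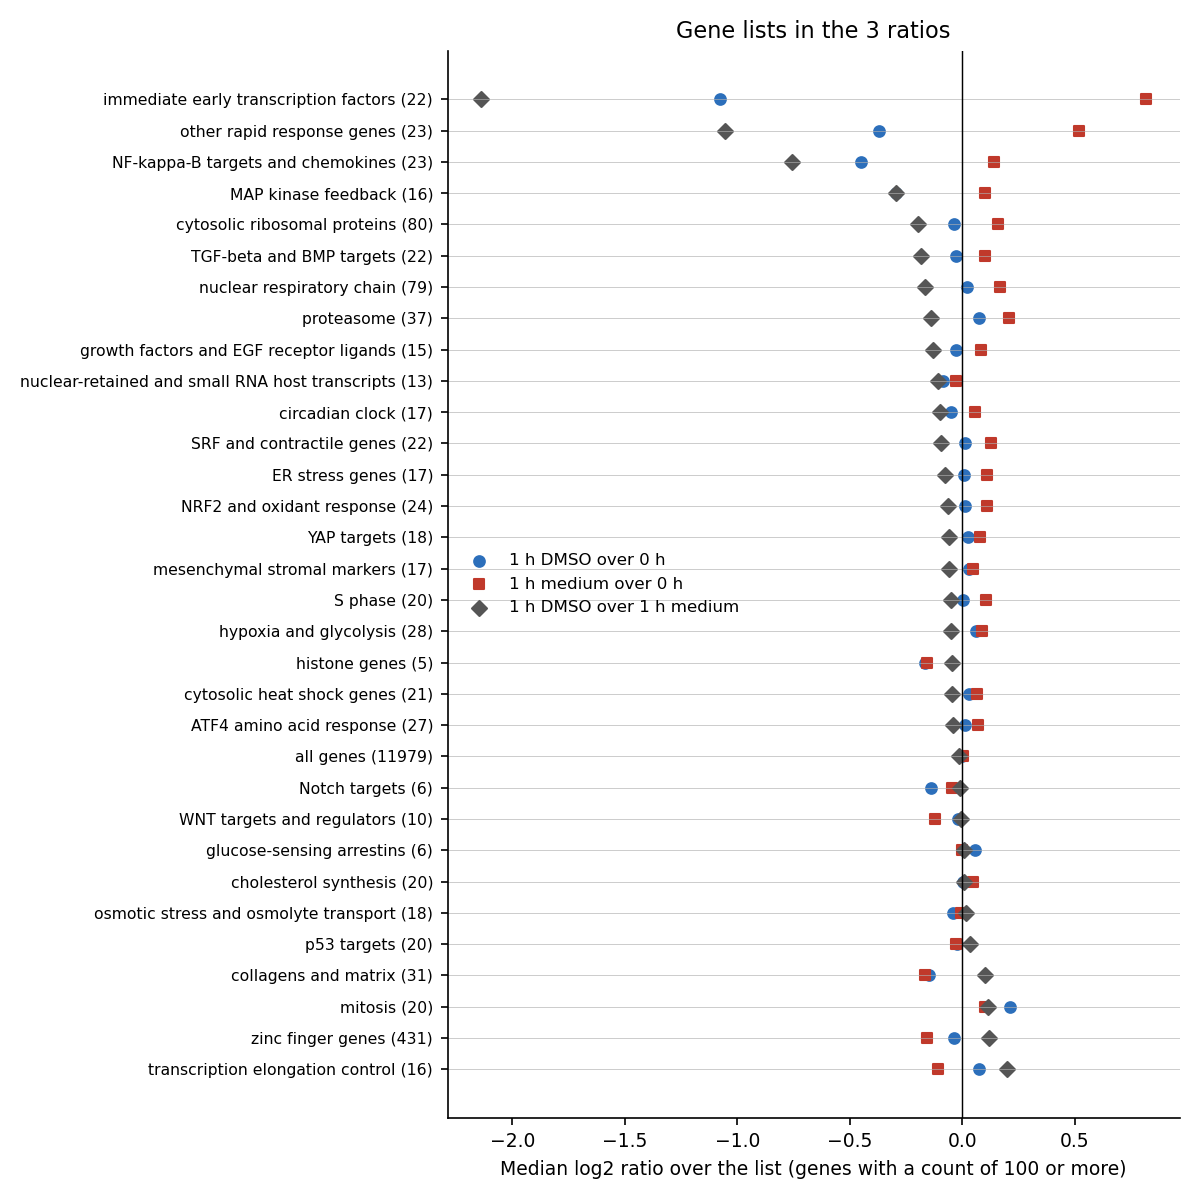
Median log2 ratio over each gene list (horizontal axis) for 1 h DMSO over 0 h, 1 h medium over 0 h and 1 h DMSO over 1 h medium; the number of measured genes stands in brackets. The 22 immediate early factors lie at -1.08, 0.82 and -2.14, and most other lists lie near 0 in all 3 ratios.

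Few genes stood higher with DMSO than at 0 h. The phosphatase gene PTPN6 (SHP-1; hg19 chr12:7055740-7070479) had 2.27 CPM with DMSO and 0.0965 CPM in medium, against 0.268 CPM at 0 h. These levels are counts of 100, 4 and 12, and while the log2 ratio of DMSO over 0 h of 2.88 had an interval from 1.86 to 4.59, the ratio of medium over 0 h of -1.14, which made it the 1 reversed gene among those lower in medium, had an interval from -4.82 to 1.01. SGCA, a sarcoglycan of the muscle membrane (hg19 chr17:48243366-48253293), had 5.09 CPM with DMSO and 0.579 CPM in medium, against 1.07 CPM at 0 h. HILS1, a histone H1-like entry that lies within SGCA, had 3.04 CPM with DMSO and 0.531 CPM in medium, against 0.715 CPM at 0 h, and the counts of these overlapping entries cannot be told apart. SEMA4A, a semaphorin, had 4.13 CPM with DMSO and 1.64 CPM in medium, against 1.79 CPM at 0 h. MYOCD, a coactivator of serum response factor, had 5.27 CPM with DMSO and 3.96 CPM in medium, against 2.37 CPM at 0 h. The remaining 3 of the 8 were TNS4 and the entries MIR612 and LOC100505576, at log2 ratios of 1.31, 1.29 and 1.21 with DMSO. The MIR612 entry spans 100 bases, and its reads do not measure the mature microRNA. These 8 genes were all weakly expressed, with no more than 10.8 CPM in any of the 3 libraries.

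Lower in both holds were the complement gene C3, MIR21 and SNORA32. C3 had 14.2 CPM with DMSO and 14.1 CPM in medium, against 28.7 CPM at 0 h, equal log2 ratios of -1.02 with intervals from -1.22 to -0.82 with DMSO and from -1.23 to -0.82 in medium. The MIR21 hairpin entry had counts of 16 with DMSO and 40 in medium, against 120 at 0 h, and such reads do not measure the mature microRNA. DNM3OS, a noncoding RNA that hosts the hairpins of MIR199A2 and MIR214 and whose span overlaps DNM3, was 2-fold lower with DMSO. It had 56.4 CPM with DMSO and 94.1 CPM in medium, against 130 CPM at 0 h. LOC284454, whose entry overlaps MIR24-2 and which was named after its values were seen, had 5.95 CPM with DMSO and 67.5 CPM in medium, against 41.5 CPM at 0 h. RGS2, which regulates G protein signalling, lay just under the threshold in both holds, at 25.8 CPM with DMSO and 25.8 CPM in medium, against 51.4 CPM at 0 h.

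Lists of other stress programmes held no gene 2-fold from 0 h in either hold. This was so for 21 cytosolic heat shock genes, 17 ER stress genes, 27 genes of the ATF4 response, 20 p53 targets and 24 NRF2 genes. It also held for 28 hypoxia and glycolysis genes, 18 genes of osmotic stress and osmolyte transport, 10 WNT genes and 20 cholesterol synthesis genes. Of all genes compared, 0.309% were 2-fold higher and 0.184% lower in medium, and 0.0668% higher and 0.342% lower with DMSO. At these shares, lists of this length hold few such genes in any case. The lists were chosen with earlier results known. ATF3 and GADD45A, 2-fold higher in medium, stood on the immediate early and rapid response lists and not on these. The heat shock median was 0.03 with DMSO and 0.06 in medium, and HSPA8, an abundant chaperone, had 1279 CPM with DMSO and 1363 CPM in medium, against 1332 CPM at 0 h. In the osmotic list SGK1, a kinase that answers serum and cell volume, was 2-fold lower with DMSO than in medium, at 55.3 CPM with DMSO and 115 CPM in medium, against 105 CPM at 0 h. SLC5A3, the myo-inositol transporter, whose reads cannot be told apart from those of the overlapping MRPS6, had 92.7 CPM with DMSO and 58.7 CPM in medium, against 89.3 CPM at 0 h. In the p53 list PMAIP1 was the 1 gene past 2-fold between the 1 h libraries, at 17.0 CPM with DMSO and 36.5 CPM in medium. Mitosis genes had medians of 0.21 with DMSO and 0.10 in medium. All 20 were above 0 h with DMSO, by log2 ratios from 0.12 to 0.34, beside 5924 of all 11979 genes compared.

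Several long lists had small median shifts, and in the medium library the ratio to 0 h also differed with gene length over all genes. The 80 cytosolic ribosomal protein genes had a median log2 ratio of -0.04 with DMSO and 0.16 in medium. All 80 were above 0 h in medium, as were 6034 of all 11979 genes compared. The DMSO median of this list was 0.01 when scaled to the library total behind the deposited RPKM values. The 79 respiratory chain genes had medians of 0.02 with DMSO and 0.17 in medium, and the 37 proteasome genes 0.07 and 0.21. The 431 zinc finger genes had medians of -0.04 with DMSO, which was 0.01 on the same other scale, and -0.16 in medium. Over all genes split into 4 sets of near equal size by deposited length, from short to long, the median ratio of DMSO over 0 h was -0.01, -0.01, 0.00 and 0.02, and that of medium over 0 h was 0.11, 0.03, -0.03 and -0.11. The part of gene length in the list medians was not tested. The 31 matrix genes had medians below 0 in both holds, at -0.15 with DMSO and -0.17 in medium. Versican, VCAN, had 1325 CPM with DMSO and 941 CPM in medium, against 1674 CPM at 0 h, and fibronectin, FN1, the gene with the most counts, took 5.79% of all counts with DMSO and 4.82% in medium, against 6.39% at 0 h. Nuclear-retained MALAT1 and NEAT1 together took 0.472% with DMSO and 0.567% in medium, against 0.487% at 0 h.

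**Figure D4:**
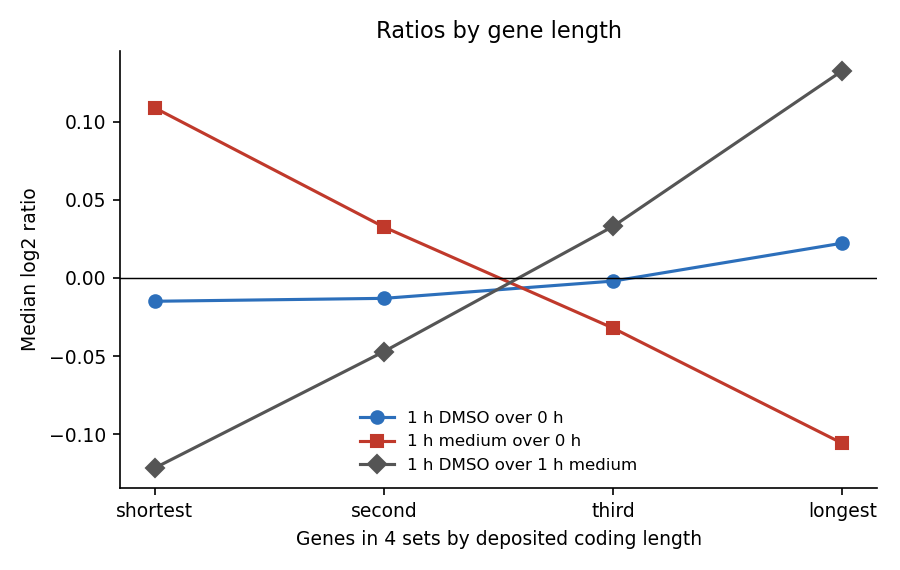
Median log2 ratio (vertical axis) in 4 sets of genes by deposited coding length, from shortest to longest, for 1 h DMSO over 0 h, 1 h medium over 0 h and 1 h DMSO over 1 h medium; each point covers 2992 to 2998 genes and there is 1 library a condition. The medium over 0 h line runs from 0.11 down to -0.11, while the DMSO over 0 h line stays within 0.02 of 0.

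The same genes were followed in cells frozen in DMSO, where a library held for 1 h can be set against one held for 0 h without any fresh library. In that pair 11 genes were at least 2-fold higher at 1 h, 0.0918% of the genes compared, and 6 were at least 2-fold lower, 0.0501%. Of the 8 genes higher with DMSO in fresh cells, 4 were among the 11: PTPN6 had 1.43 CPM at 1 h and 0.197 CPM at 0 h, SGCA had 6.85 CPM at 1 h and 2.20 CPM at 0 h, MIR612 had 8.02 CPM at 1 h and 3.82 CPM at 0 h, and LOC100505576 had 6.89 CPM at 1 h and 3.34 CPM at 0 h. The median over the 8 was 0.92, with a range from 0.08 to 2.61, beside -0.02 over all genes. In the 3 libraries frozen in other solutions PTPN6 had 0.364 to 1.27 CPM and SGCA had 0.957 to 1.12 CPM. MIR612 had 5.69 to 12.4 CPM there and LOC100505576 had 7.06 to 9.75 CPM. Of these 4 genes only SGCA lay below its frozen 0 h DMSO level in those libraries. Of the 41 genes lower with DMSO in fresh cells, 5 were among the 6 (EGR1, FOS, LOC158257, MIR21 and MIR23A) and 1, NR4A2, was among the 11 higher, and the median over the 41 was -0.29. EGR1 had 129 CPM at 1 h and 272 CPM at 0 h in frozen cells, and FOS had 76.4 CPM at 1 h and 154 CPM at 0 h. Many of these calls rest on small counts: PTPN6 had counts of 66 at 1 h and 10 at 0 h, MIR21 had counts of 24 at 1 h and 58 at 0 h, and MIR23A had counts of 2 at 1 h and 8 at 0 h, where the interval of the log2 ratio ran from -7.48 to 1.48. The interval lay wholly past 2-fold for 2 of the 11 higher genes, PTPN6 and SGCA, and for 1 of the 6 lower, EGR1. PTPN6 and SGCA had entered the comparison only through the fresh DMSO library. LOC158257 and MIR21 had entered only through the fresh 0 h library, and MIR23A only through the fresh medium library. In the same pair the 37 genes higher in medium had a median of -0.05, and HES1 had 5.07 CPM at 1 h and 4.60 CPM at 0 h. The summed level of the 22 immediate early factors, scaled over all 8 libraries, was 1246 CPM at 1 h and 1488 CPM at 0 h in cells frozen in DMSO. It was 1928 to 2941 CPM in the 3 libraries frozen in other solutions. The 1928 CPM was that of the SMC library, held for 2 h, and the 2941 CPM that of the SGC library, held for 1 h. On that scale the summed level was 1177 CPM in fresh cells with DMSO and 5740 CPM in medium, against 3089 CPM at 0 h. For this list both DMSO-frozen libraries thus lay near the fresh library with DMSO, and the fresh library held in medium was the highest of the 8. The NF-kappa-B list was also highest in fresh medium, at 1744 CPM. The 23 other rapid response genes were highest in a library frozen in another solution, at 7498 CPM, against 7326 CPM in fresh medium.

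**Figure D5:**
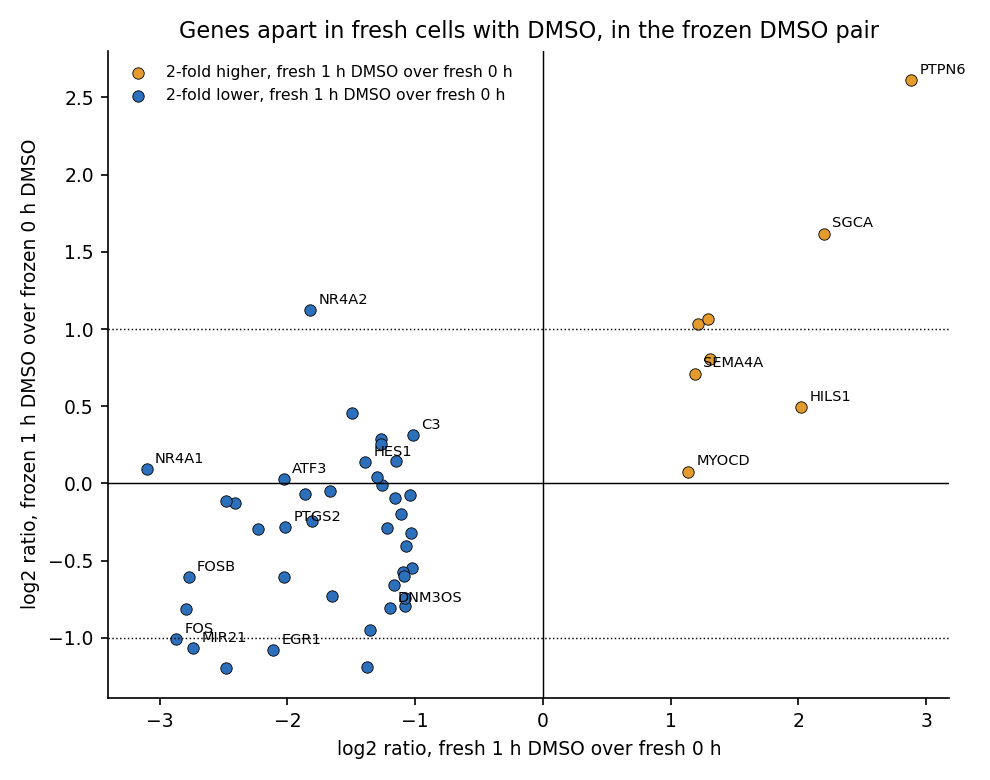
Log2 ratio of frozen 1 h DMSO over frozen 0 h DMSO (vertical axis) against log2 ratio of fresh 1 h DMSO over fresh 0 h (horizontal axis), for the 8 genes at least 2-fold higher and the 41 at least 2-fold lower in fresh cells; the axes share no library. PTPN6 and SGCA are high on both axes, EGR1 and FOS are low on both, and NR4A1, ATF3 and HES1 lie near 0 on the vertical axis.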

How the data were processed

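RNA was sequenced from 8 libraries of H9-derived stromal cells; the 3 fresh ones are described here. Per the submitters' processing notes the tools were CASAVA 1.9, TopHat and HTSeq, on build hg19; no source used here gives the annotation, strand setting or treatment of read mates. The authors deposited 1 count and 1 RPKM value per gene and library. The deposited counts are whole and unnormalised; 0 are odd, and intervals assume that each unit was entered as 2. The RPKM values, which the authors scaled per kilobase of coding length and library total, served only to recover that total. Of 23398 entries, repeats with identical counts were kept once.

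Libraries were scaled by TMM over the 3 fresh libraries (edgeR 4.0.16, R 4.3.3), for genes with a count of 100 or more in at least 1. Log2 ratios used a prior count of 2. The 95% intervals are exact binomial (ratios) or Poisson (levels). Alternatives used library totals, DESeq2 1.42.0 size factors, TMM over all 8 libraries, the RPKM total, other prior counts, count minimums and a 1.5-fold threshold. Ratios and classes were tested on simulated counts.

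The gene lists, 37 in all, and the members were chosen with earlier results of these data known. Genes were named by rule: up to 8 per class and direction by ratio, up to 4 per list, and all immediate early factors; further members of lists and sets of interest were named after their values were seen. The chi-square per gene between the 3 libraries was 10.4 to 26.9, above sampling noise. Promoters are from RefSeq (GRCh38.p14); the kappa-B site was added to the motifs later. Overlaps of deposited spans with those of other genes are marked in the text for several named entries, not for all. DUSP2, MIR21, LOC158257, SGCA and HILS1 also overlap spans of microRNA entries, and TXNIP those of PPIAL4 and 2 uncharacterised entries.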

Additional observations from a re-analysis of the deposited data

How the results depend on the processing

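The 37 genes higher in medium stayed at 35 to 38 under library totals alone, DESeq2 size factors, TMM over all 8 libraries, the library total behind the RPKM values, prior counts of 0 and 10, and with small RNA entries left out, a setting chosen after seeing the data; under these settings the share reversed with DMSO was 51.43% to 56.76%. Of 52 sorted or immediate early genes followed singly, 0 changed the sign of a 2-fold ratio of DMSO over medium under these settings or with no count minimum, and 36 of them could be followed at a count minimum of 400, again with 0 sign changes. Under the RPKM total 8 of the 52, all with large counts, moved by more than their counting interval, for example to -3.09 for EGR1 and -1.33 for JUN, which were -3.18 and -1.41 at the main settings. Of the list medians of DMSO over medium, 3 moved with no count minimum, to -1.91 for immediate early factors, -0.70 for other rapid response genes and -0.18 for MAP kinase feedback, and 1 at a minimum of 400, to -0.12 for MAP kinase feedback, against -0.29 for that list at the main settings. Raising the prior count to 10 gave 14 genes lower in medium and 13 higher with DMSO than in medium; of those lower in medium 85.71% were then absent with DMSO, 0% reversed and 0% reduced.

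A count minimum of 400 gave 6 genes lower in medium (0% reversed), 3 higher and 25 lower with DMSO than at 0 h, 3 higher with DMSO than in medium, and 2 higher and 4 lower with DMSO alone. With no count minimum there were 1077 genes higher and 669 lower in medium, 786 higher and 548 lower with DMSO, 752 higher and 1065 lower with DMSO than in medium, and 283 higher and 171 lower with DMSO alone; of those higher in medium 5.292% were reversed, 24.23% reduced and 29.43% kept, and of those lower 33.78% were absent. Fewer or more genes of small counts enter these sets by construction. At 1.5-fold there were 116 genes higher and 210 lower in medium, 50 higher and 165 lower with DMSO, 188 higher and 191 lower with DMSO than in medium, and 15 higher and 48 lower with DMSO alone; of those higher in medium 37.93% were reversed and 12.93% kept. At the main settings 4 genes were higher and 9 lower with DMSO alone.

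Leaving out a replicate was not possible with 1 library a condition. No paired analysis was possible because the labels give no replicate numbers and no test was made. Depth limits the lower calls in medium and the higher calls with DMSO, most of which rest on counts under 400 in every fresh library.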
